A study of Mus musculus with 12 samples.

Results

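The messenger RNAs of 32 subunits of the Polycomb repressive complexes PRC1 and PRC2 were followed in mouse embryonic stem (ES) cells. The members were named by gene symbol as known subunits, and each matched 1 of the 52550 gene identifiers in the deposited tables. All 32 were among the 16987 genes with enough counts to be tested. They comprised 6 genes of the PRC2 core (Ezh1, Ezh2, Eed, Suz12, Rbbp4 and Rbbp7), 5 PRC2 accessory genes (Jarid2, Aebp2, Mtf2, Phf1 and Phf19), the 2 genes of the PRC1 catalytic subunits (Ring1 and Rnf2), 6 PCGF genes (Pcgf1, Pcgf2, Pcgf3, Pcgf5, Pcgf6 and Bmi1), 4 CBX genes (Cbx2, Cbx6, Cbx7 and Cbx8), 4 PHC and SCM genes (Phc1, Phc2, Phc3 and Scmh1) and 5 partners of variant PRC1 (Rybp, Yaf2, Kdm2b, Bcor and L3mbtl2).

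The series holds 12 RNA sequencing libraries in 6 groups of 2. Cells whose label names no knockout, called unmodified here, were grown with the cytokine LIF either in serum or in 2iL, a serum-free medium with inhibitors of the kinases MEK and GSK3. Cells labelled as GSK3 knockouts were grown in serum/LIF, and the labels used here give neither the allele nor the clone. Each of the 3 settings received for 60 h either 100 nM JQ1, a small molecule that displaces the BET bromodomain proteins from acetylated histones, or its solvent DMSO. A layer of mitomycin-treated mouse fibroblasts had supported the serum/LIF cells until they were replated on gelatin, and the 2iL cells were cultured on gelatin throughout. Medium and feeder history therefore cannot be told apart. The labels number the libraries of a group without saying whether they came from separate cultures, so the p-values speak only of the spread between libraries.

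PRC2 places methyl groups on a lysine of the histone H3 tail through EZH1 or EZH2, and EED and SUZ12 are needed for its activity. PRC1 attaches ubiquitin to histone H2A through RING1 or RNF2 (also called RING1B), and the PCGF protein bound to that pair decides the kind of PRC1. Canonical PRC1 holds a CBX protein, which reads the PRC2 mark, and a PHC protein, while variant PRC1 holds RYBP or YAF2 in place of CBX. In ES cells the complexes sit on unmethylated CpG islands of developmental genes, which they keep at low levels.

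Library totals ran from 17869865 to 48723436 expected counts, and the deepest was replicate 1 of unmodified serum/LIF cells with DMSO. Gsk3a stood between 23.4 and 32.9 counts scaled to library size (CPM) in the 4 knockout libraries and between 65.1 and 130 CPM in the other libraries, and Gsk3b between 42.5 and 61.1 CPM against 72.2 to 158 CPM. The 8 ES cell markers, none of them at 0, summed in unmodified serum/LIF to 1881 to 2435 CPM with DMSO and 1270 to 1988 CPM with JQ1. The sums were 4156 to 4631 and 4553 to 4721 CPM in 2iL, and 3521 to 3944 and 3655 to 4016 CPM in the knockout. By the test given below, JQ1 in unmodified serum/LIF lowered 5 of the 8 and raised 0, with Nanog falling from 140 and 174 to 44.3 and 59.6 CPM. In 2iL against serum/LIF with DMSO 6 were higher and 2, Utf1 and Tdgf1, lower. The summed level of the fibroblast markers without Fn1, which was high in every library, was 781 to 786 CPM in unmodified serum/LIF with DMSO and 318 to 323 CPM with JQ1. The 2iL libraries summed to 7.97 to 12.5 CPM with DMSO and 4.70 to 6.21 CPM with JQ1, where 4 of the 10 markers were at 0 in each group, among them Postn, Lum and Dcn in both. The knockout libraries summed to 258 to 418 CPM with DMSO and 146 to 189 CPM with JQ1. These markers moved with medium, genotype and JQ1, and their part in the results below was not tested. The share of mitochondrially encoded genes was 9.44% and 11.9% with DMSO and 6.45% and 7.51% with JQ1 for unmodified cells in serum/LIF, 6.75% and 6.41% against 4.67% and 4.82% in 2iL, and 10.7% and 11.2% against 7.20% and 8.43% in the knockout. The share was lower with JQ1 in each setting, without overlap. Exons of 12 members (Ezh2, Eed, Suz12, Rbbp4, Rbbp7, Mtf2, Phf1, Rnf2, Pcgf5, Cbx7, Kdm2b and L3mbtl2) overlap with genes on the other strand and those of 2 (Cbx6 and Kdm2b) with genes on their own. The strand setting of the counting is not given in the sources used here, and for 7 members (Eed, Suz12, Rbbp4, Mtf2, Rybp, Kdm2b and L3mbtl2) the expected count was not whole in more than 6 of the 12 libraries, so their levels may hold reads of other genes. In such bulk libraries, fewer cells of a type and less RNA per cell cannot be told apart.

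Per unit of length, in the authors' length-scaled transcript values (TPM), most Polycomb subunits were moderately expressed and the members of each family were unequal. With DMSO in unmodified serum/LIF the highest was Rbbp7, a histone-binding subunit shared with other chromatin complexes, at 230 and 199 TPM. Phc1 at 106 and 114 TPM and Eed at 95.6 and 103 TPM came next, and their ranges overlapped neither with Rbbp7 nor, for Phc1 and Eed, with each other. The lowest were Cbx8 at 0.930 and 1.00 TPM, Phf19 at 1.40 and 2.75 TPM, Phc3 at 2.23 and 2.03 TPM and Bmi1 at 3.00 and 2.87 TPM. Among these 4, Phf19 overlapped with Phc3 and Cbx8 and Bmi1 stood clear of their neighbours. The median of the 32 members was 25.0 TPM.

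**Figure D1:**
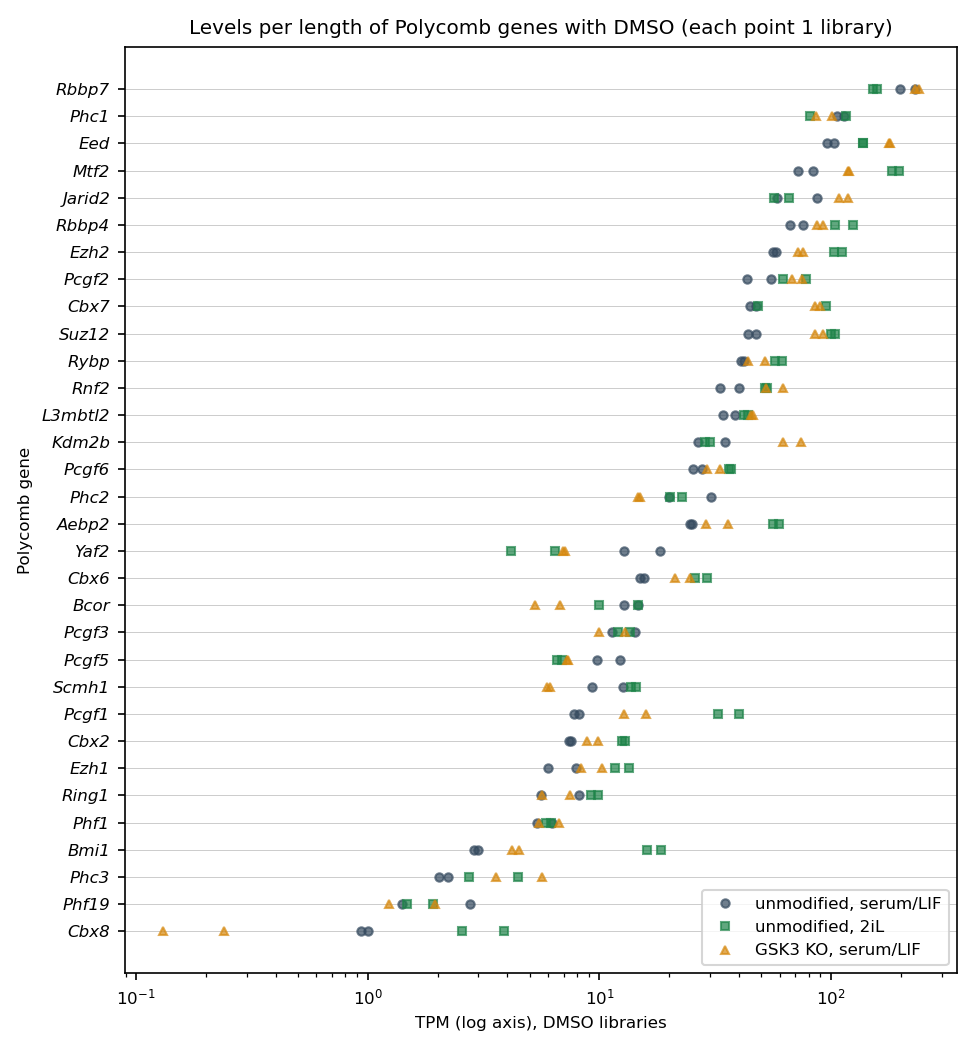
Level per length of each Polycomb gene in the 6 DMSO libraries, in TPM on a log axis, with 1 point per library and genes ordered by their mean in unmodified serum/LIF. Rbbp7 was highest at 230 and 199 TPM in unmodified serum/LIF, Cbx8 was lowest at 0.930 and 1.00 TPM, and the 2iL points of Bmi1, Pcgf1 and Cbx8 lie to the right of their serum/LIF points.

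The promoters of 4 members are shown because the results below turn on them. Suz12 rose and Phf19 fell with JQ1 in all 3 settings, and Bmi1 and Cbx8 had the largest differences between 2iL and serum/LIF among the members. They are from the RefSeq promoter table (GRCm38.p6), read 5′ to 3′ on the gene's strand from 250 bases before to 50 bases after the annotated start. Capitals mark each match, on either strand, to 6 motifs that were searched. These were the basal promoter element TATAAA, the box bound by NF-Y with the letters CCAAT, the box bound by Sp proteins with the letters GGGCGG, the site bound by Myc proteins with the letters CACGTG, the site bound by TCF proteins with the letters ATCAAAG, and the site bound by CREB with the letters TGACGTCA.
Suz12, chr11:79992856-79993155, + strand: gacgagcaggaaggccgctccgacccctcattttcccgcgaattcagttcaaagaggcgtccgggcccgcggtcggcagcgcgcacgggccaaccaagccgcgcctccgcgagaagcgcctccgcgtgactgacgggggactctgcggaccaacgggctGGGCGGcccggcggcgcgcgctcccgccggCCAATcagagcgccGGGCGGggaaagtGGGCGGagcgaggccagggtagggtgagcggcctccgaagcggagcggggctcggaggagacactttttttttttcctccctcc
Phf19, chr2:34913927-34914226, - strand: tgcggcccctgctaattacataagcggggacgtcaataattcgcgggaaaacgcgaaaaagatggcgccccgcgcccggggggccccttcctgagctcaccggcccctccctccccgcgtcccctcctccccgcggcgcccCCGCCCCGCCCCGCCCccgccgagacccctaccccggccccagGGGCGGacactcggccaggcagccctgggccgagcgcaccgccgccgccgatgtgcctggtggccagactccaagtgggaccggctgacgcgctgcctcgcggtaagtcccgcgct
Bmi1, chr2:18676768-18677067, + strand: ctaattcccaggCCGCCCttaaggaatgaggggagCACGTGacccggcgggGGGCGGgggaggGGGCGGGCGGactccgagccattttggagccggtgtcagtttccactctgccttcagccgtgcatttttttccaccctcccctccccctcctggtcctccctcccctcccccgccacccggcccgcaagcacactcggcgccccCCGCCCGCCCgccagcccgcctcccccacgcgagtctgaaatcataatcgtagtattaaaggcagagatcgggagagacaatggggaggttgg
Cbx8, chr11:119040864-119041163, - strand: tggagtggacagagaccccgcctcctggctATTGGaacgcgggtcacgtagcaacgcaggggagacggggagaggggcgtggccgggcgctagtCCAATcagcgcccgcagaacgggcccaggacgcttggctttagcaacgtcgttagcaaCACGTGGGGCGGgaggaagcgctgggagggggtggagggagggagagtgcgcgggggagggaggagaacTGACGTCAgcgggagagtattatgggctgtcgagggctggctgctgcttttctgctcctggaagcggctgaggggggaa

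All 4 sequences are CpG-rich, with 41 CpG in Suz12, 38 in Phf19, 23 in Bmi1 and 24 in Cbx8, against a median of 7 over the 32851 promoters of the table. Matches to the Sp motif, some of which overlap, number 3 in Suz12, 4 in Phf19, 6 in Bmi1 and 1 in Cbx8. Suz12 also holds 1 match to the NF-Y motif, Bmi1 holds 1 to the Myc motif, and Cbx8 holds 2 to the NF-Y motif, 1 to the Myc motif, directly before that of Sp, and 1 to the CREB motif. The table gave 41 promoters for 28 members, with no entry for Cbx2, Pcgf1, Rybp and Yaf2. Of the 41, 27 held the Sp motif, as did 35.7% of all promoters, 17 held that of NF-Y (37.4% of all), 7 that of Myc (7.15%), and 1 each the basal element (13.6%), the TCF motif (3.73%) and the CREB motif (1.79%). The median CpG number of the members' promoters was 23. These matches are letters in a window and say nothing of binding.

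The first question was how BET inhibition changed the Polycomb genes in each setting. With JQ1, more members rose than fell in all 3 settings, and 4 members changed in the same direction in every one. Suz12, Rybp and Pcgf5 were higher and Phf19 was lower in all 3 settings. Differences are log2 fold changes of JQ1 over DMSO with their standard errors (SE), from edgeR's quasi-likelihood test, and passing means a p under 0.05 after Benjamini-Hochberg adjustment over all 16987 genes. Where libraries are said not to overlap, this describes the values and adds no support to a call. Members that did not pass, such as Rnf2 and Pcgf3 in serum/LIF, did not overlap either. In unmodified serum/LIF 8 of 32 members rose (8.54% of all genes tested did) and 2 fell (12.8% of all genes). Either way, 31.2% of the members passed beside 21.3% of all genes. In 2iL 5 members rose (11.2% of all genes) and 4 fell (17.3%), and the members' share of 28.1% was that of the background, 28.5%. In the knockout 14 rose (14.6%) and 3 fell (19.5%), 53.1% of the members beside 34.1% of all genes. The median log2 fold change of the members was 0.17, 0.20 and 0.20 in serum/LIF, 2iL and the knockout, against -0.02, -0.06 and -0.06 over all genes. The counts of members that rose and fell in each setting were the same, 8 and 2, 5 and 4, and 14 and 3, in a fit without the mitochondrially encoded genes, whose share moved with JQ1. In that fit 3639, 4820 and 5840 of 16972 genes passed in serum/LIF, 2iL and the knockout. In the average over the 3 settings 14 rose (19.9% of all genes) and 3 fell (25.6%), 53.1% of the members beside 45.6% of all genes. Of the 29 members with a mean of at least 10 CPM, a cut chosen after seeing the data, 9, 7, 15 and 16 passed in serum/LIF, 2iL, the knockout and the average, and 22.1%, 30.0%, 39.8% and 49.3% of the 9129 genes at that level did.

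Genes that passed higher in all 3 settings numbered 385, or 2.27% of those tested, and genes lower in all 3 numbered 822, or 4.84%. None of the members rose in 1 setting and fell in another, and 1.47% of all genes did, so that count is near the background. Aebp2, Cbx6, Eed, Ezh1, L3mbtl2, Mtf2, Pcgf3, Pcgf6, Phc1, Phc3 and Rnf2, 11 members, passed in none, as did 45.8% of all genes. In serum/LIF the number of members that passed fell from 10 to 3 (Bcor, Cbx2 and Pcgf5) when only the 4 libraries compared entered the fit. In that fit 2245 of 15850 genes passed, so the members' larger share in the main fit was not seen there. The corresponding fits gave 8 members beside 4083 of 14756 genes in 2iL, and 21 beside 7329 of 14874 in the knockout. In all 3 settings the number of members that passed also moved when 1 library was left out, as did the number of all genes.

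**Figure D2:**
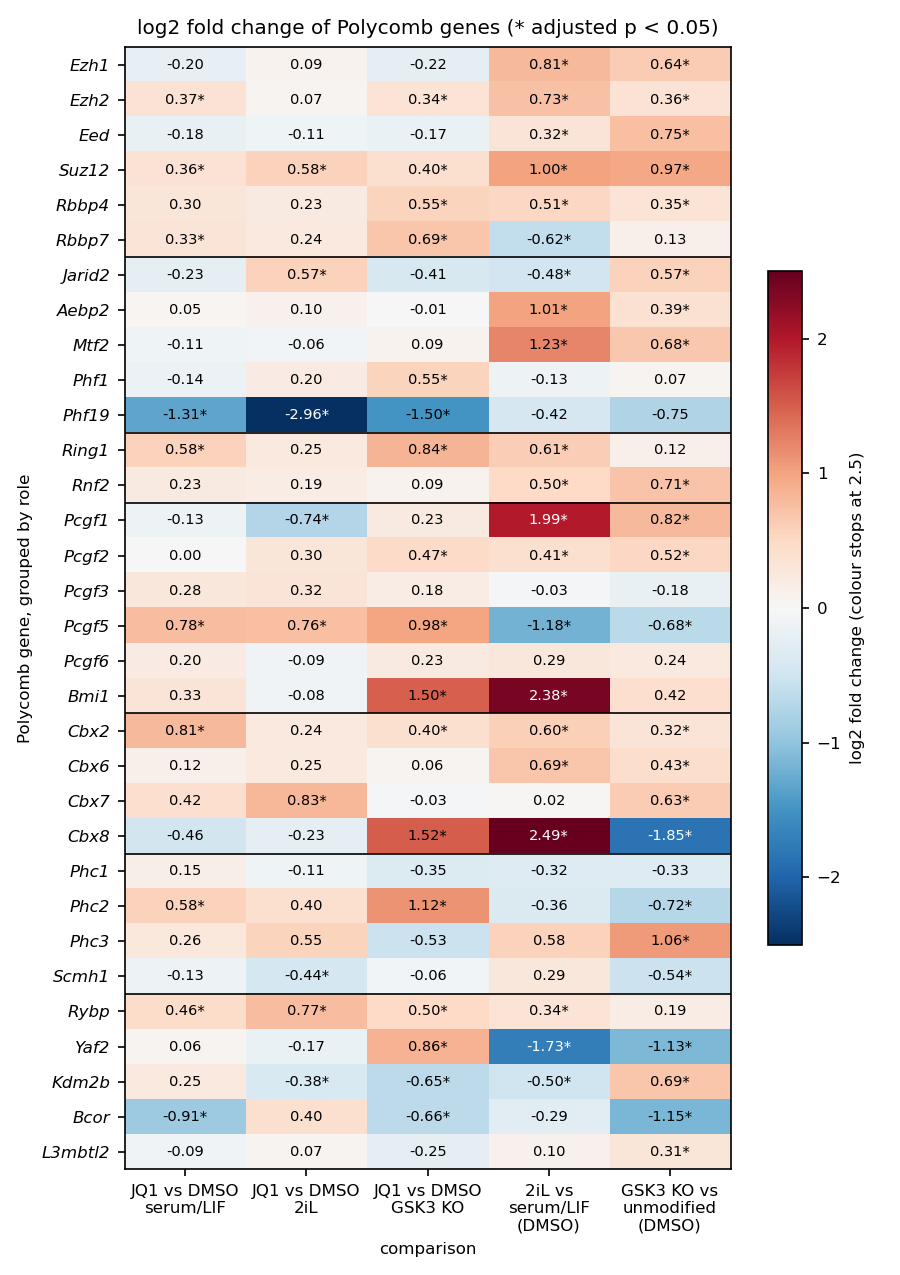
Log2 fold change of the 32 Polycomb genes in 5 comparisons, with the value in each cell and an asterisk where the adjusted p was under 0.05, and black lines between the roles. The colour scale stops at 2.5, and the lowest value is -2.96 for Phf19 with JQ1 in 2iL.

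In the PRC2 core, Suz12, whose product stabilises the complex, responded in every setting. Its level was 160 and 183 CPM with DMSO and 224 and 217 CPM with JQ1 in unmodified serum/LIF, 341 and 343 against 522 and 503 CPM in 2iL, and 344 and 330 against 446 and 444 CPM in the knockout. The JQ1 libraries lay above the DMSO libraries in each setting, without overlap. The log2 fold changes were 0.36 ± 0.09 (adjusted p = 0.0167), 0.58 ± 0.09 (adjusted p = 0.000712) and 0.40 ± 0.09 (adjusted p = 0.00596). In serum/LIF the call was lost without replicate 1 with DMSO (log2 0.28, adjusted p = 0.121), without replicate 1 with JQ1 (0.34, 0.0539) or with only the 4 libraries compared (0.36, 0.142), and in the knockout without replicate 2 with DMSO (0.38, 0.0502). The Suz12 gene (ENSMUSG00000017548.15, chr11:79993106-80034123 in GRCm38) overlaps an exon of a noncoding gene on the other strand.

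Ezh2, the main methyltransferase of PRC2, stood at 105 and 110 CPM with DMSO and 133 and 145 CPM with JQ1 in unmodified serum/LIF, and at 130 and 146 against 169 and 180 CPM in the knockout. The libraries did not overlap, and the log2 fold changes were 0.37 ± 0.10 (adjusted p = 0.0223) and 0.34 ± 0.10 (adjusted p = 0.0242). In 2iL the values were 188 and 167 CPM with DMSO and 184 and 189 CPM with JQ1, which overlapped (log2 0.07 ± 0.10, adjusted p = 0.635). Neither call was firm: in serum/LIF it was lost with only the libraries compared (adjusted p = 0.112) and without either DMSO library or replicate 2 with JQ1 (0.0657 to 0.108), and in the knockout without replicate 1 with DMSO or either JQ1 library (0.0632 to 0.194). Ezh1, its less active paralog, passed in no setting, with 14.1 and 23.2 CPM against 14.4 and 17.7 CPM in serum/LIF, 28.0 and 36.6 against 33.6 and 35.4 CPM in 2iL, and 31.4 and 25.9 against 26.2 and 23.1 CPM in the knockout.

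The histone-binding subunit Rbbp7 rose by log2 0.33 in serum/LIF (adjusted p = 0.0304) and by 0.69 in the knockout (adjusted p = 0.000248), and its paralog Rbbp4 by 0.55 in the knockout (adjusted p = 0.00467). The knockout values of Rbbp7 were 397 and 410 CPM with DMSO against 624 and 678 CPM with JQ1. Eed, which reads the mark that PRC2 places, had log2 fold changes between -0.18 and -0.11 and passed in no setting. The serum/LIF call of Rbbp7 was lost with only the libraries compared (adjusted p = 0.194), without replicate 2 with DMSO (0.188) or replicate 2 with JQ1 (0.0879), and that of Rbbp4 in the knockout without replicate 1 with DMSO (0.0556).

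In serum/LIF and 2iL the largest response to JQ1 among the members, by fold change, was that of Phf19, which encodes a Polycomb-like accessory protein that helps PRC2 bind chromatin. It stood at 4.30 and 8.19 CPM with DMSO and 1.78 and 3.19 CPM with JQ1 in unmodified serum/LIF, 3.95 and 5.21 against 0.456 and 0.690 CPM in 2iL, and 3.76 and 3.52 against 0.927 and 1.73 CPM in the knockout. Every JQ1 library was below both DMSO libraries of its setting. The log2 fold changes were -1.31 ± 0.38 (adjusted p = 0.0288), -2.96 ± 0.47 (adjusted p = 0.000615) and -1.50 ± 0.42 (adjusted p = 0.0158). The 2iL libraries with JQ1 held 8 and 16 counts of Phf19 (ENSMUSG00000026873.9, chr2:34893757-34914026), so that value has a wide counting error, and the difference between the responses in 2iL and serum/LIF did not pass (log2 -1.65 ± 0.61, adjusted p = 0.170). The serum/LIF call was lost with only the libraries compared (-1.31, adjusted p = 0.0543), without replicate 2 with DMSO (-0.79, 0.246) or replicate 1 with JQ1 (-0.93, 0.179). That of the knockout was lost without replicate 1 with DMSO (-1.45, 0.0715) or with JQ1 (-1.07, 0.152).

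The other Polycomb-like genes did not follow Phf19. Mtf2, which held 90.8% ± 0.539 (SD, n = 2) of the summed TPM of the 3 Polycomb-like genes in unmodified serum/LIF with DMSO, had log2 fold changes of -0.11, -0.06 and 0.09 with JQ1 and passed in no setting. Phf1 rose in the knockout (log2 0.55, adjusted p = 0.0251), a call that was lost without either DMSO library (0.0542 and 0.161) or replicate 1 with JQ1 (0.259). The difference of its response from that in serum/LIF did not pass (log2 0.69, adjusted p = 0.117). Jarid2, which links PRC2 to its targets, rose in 2iL (log2 0.57 ± 0.16, adjusted p = 0.0207) from 270 and 269 to 427 and 372 CPM, lost without either DMSO library (0.0578 and 0.0787) or replicate 1 with JQ1 (0.130). Its log2 fold changes in serum/LIF and the knockout were -0.23 and -0.41 and did not pass. Aebp2, another accessory subunit, stayed within log2 -0.01 and 0.10 and did not pass.

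Of the PRC1 catalytic pair, the less abundant Ring1 responded and the more abundant Rnf2 did not pass in any single setting. Ring1 stood at 8.90 and 9.88 CPM with DMSO and 12.6 and 15.4 CPM with JQ1 in unmodified serum/LIF, 15.1 and 13.4 against 15.5 and 18.2 CPM in 2iL, and 9.65 and 10.7 against 18.0 and 18.4 CPM in the knockout. The groups did not overlap in any setting. The log2 fold changes were 0.58 in serum/LIF (adjusted p = 0.0211), 0.25 in 2iL, which did not pass, and 0.84 in the knockout (adjusted p = 0.00173). The serum/LIF call was lost with only the libraries compared (adjusted p = 0.0845) and without either DMSO library or replicate 2 with JQ1 (0.0528 to 0.119). Rnf2 stood at 75.8 and 70.0 against 87.7 and 83.8 CPM in serum/LIF, 105 and 101 against 113 and 122 CPM in 2iL, and 123 and 115 against 124 and 130 CPM in the knockout. Its average response was log2 0.17 (adjusted p = 0.0224), which was lost without any 1 of 4 libraries: replicate 2 of serum/LIF with DMSO, of 2iL with JQ1, and of the knockout with DMSO or JQ1 (0.0564 to 0.0689).

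Among the variant PRC1 genes, Pcgf5, whose product defines a variant complex active across the genome, rose in every setting. Its level was 21.4 and 19.8 CPM with DMSO and 37.9 and 33.1 CPM with JQ1 in unmodified serum/LIF, 9.55 and 8.61 against 14.9 and 15.9 CPM in 2iL, and 13.8 and 11.8 against 25.1 and 25.7 CPM in the knockout. The log2 fold changes of 0.78 ± 0.13 (adjusted p = 0.00152), 0.76 ± 0.14 (adjusted p = 0.00187) and 0.98 ± 0.14 (adjusted p = 0.000237) held under all 19 alternatives tried, 12 of which left out 1 library. Rybp, which bridges RING1 or RNF2 to nucleosomes in variant PRC1, stood at 160 and 158 against 222 and 217 CPM in serum/LIF, 197 and 206 against 341 and 345 CPM in 2iL, and 190 and 173 against 259 and 253 CPM in the knockout. No JQ1 library of Pcgf5 or Rybp overlapped with the DMSO libraries of its setting. The log2 fold changes of Rybp were 0.46, 0.77 and 0.50 (adjusted p = 0.00362, 8.09e-05 and 0.00131), and that of serum/LIF was lost with only the libraries compared (adjusted p = 0.0580).

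**Figure D3:**
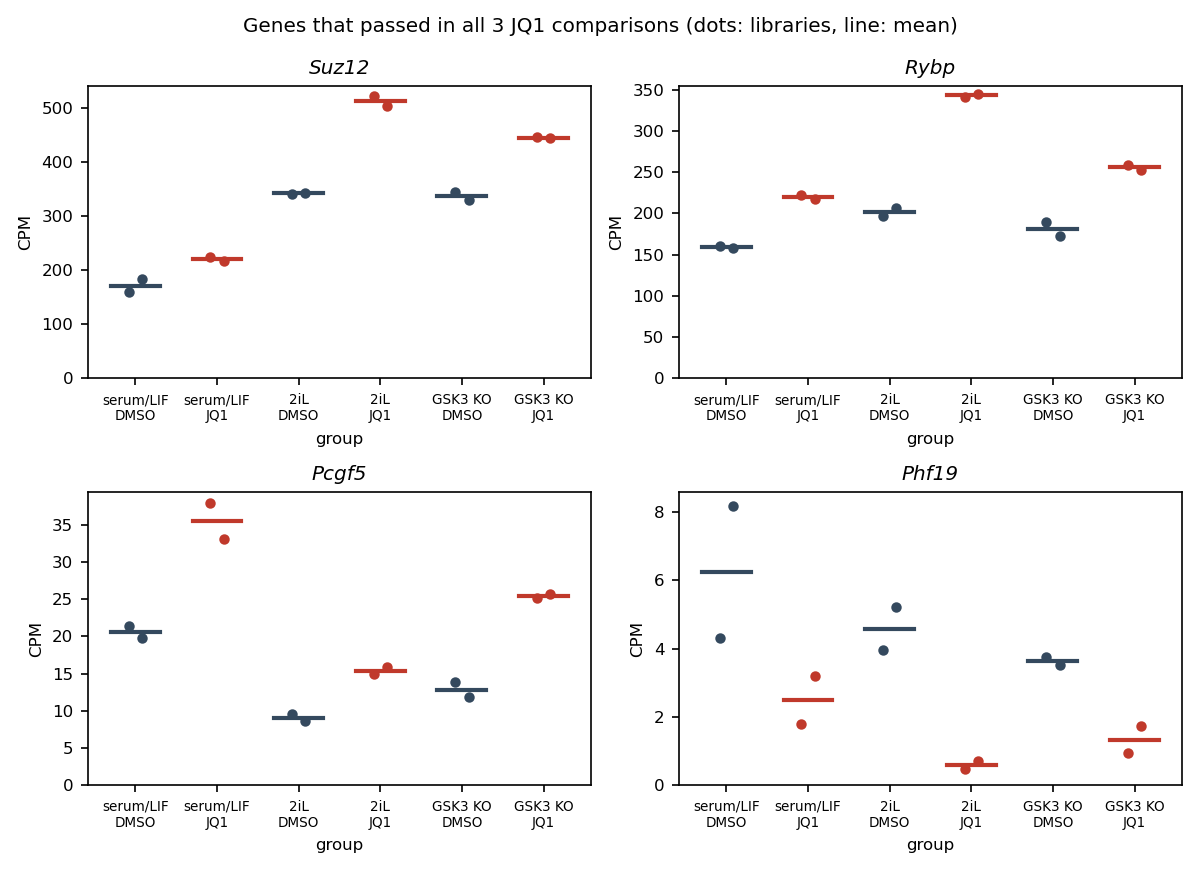
CPM per library of the 4 members that changed with JQ1 in all 3 settings, by group, with a line at the group mean and each axis starting at 0. The JQ1 points of Suz12, Rybp and Pcgf5 lie above the DMSO points of their setting, and those of Phf19 lie below, down to 0.456 and 0.690 CPM in 2iL.

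Of the 4 CBX genes, 1 rose in unmodified serum/LIF, 1 in 2iL and 2 in the knockout, and none fell. Of the 4 PHC and SCM genes 1 rose in serum/LIF and 1 in the knockout, and 1 fell in 2iL. Cbx2 stood at 23.9 and 24.3 CPM with DMSO and 42.1 and 42.4 CPM with JQ1 in unmodified serum/LIF (log2 0.81, adjusted p = 0.000326), a call that held under all 19 alternatives, and rose by 0.40 in the knockout (adjusted p = 0.0122), lost there without replicate 2 with DMSO (0.0968) or replicate 1 with JQ1 (0.0991). Cbx7, the main CBX gene of ES cells, rose in 2iL from 62.3 and 96.7 to 135 and 147 CPM (log2 0.83, adjusted p = 0.00357), with log2 fold changes of 0.42 and -0.03 in serum/LIF and the knockout that did not pass. Its 2 DMSO libraries in 2iL stood far apart. Phc2, a polyhomeotic subunit through which PRC1 polymerises, rose in the knockout from 30.5 and 29.3 to 64.8 and 65.7 CPM (log2 1.12, adjusted p = 0.000286) and in serum/LIF from 58.4 and 40.0 to 79.1 and 68.9 CPM (log2 0.58, adjusted p = 0.0197). The serum/LIF call of Phc2 was lost with only the libraries compared (0.0733), without replicate 2 with DMSO (0.158) or replicate 1 with JQ1 (0.105). Cbx6, Phc1 and Phc3 passed in no setting, and Scmh1, a related SAM-domain gene, fell in 2iL by log2 0.44 (adjusted p = 0.0357), a call lost without any 1 of the 2iL or knockout libraries, without the low-count filter or with only the libraries compared (adjusted p = 0.0544 to 0.257).

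Pcgf1, which forms a variant complex with KDM2B and BCOR, fell in 2iL from 18.1 and 13.2 to 9.79 and 8.97 CPM (log2 -0.74, adjusted p = 0.0123), lost without replicate 1 with DMSO (-0.49, 0.142) or either JQ1 library (0.0552 and 0.0987). Pcgf2, the main PCGF gene of canonical PRC1 in these libraries by TPM, rose in the knockout from 77.0 and 81.5 to 108 and 111 CPM (log2 0.47, lost without replicate 1 with DMSO, adjusted p = 0.0697, or replicate 2 with JQ1, 0.0530). Yaf2, the paralog of Rybp, rose in the knockout from 9.35 and 9.84 to 16.4 and 18.3 CPM (log2 0.86, adjusted p = 0.00722), lost without replicate 1 with DMSO (0.0564) or replicate 2 with JQ1 (0.0519). In each of these 3 cases the libraries did not overlap.

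The differences of the JQ1 response between settings were then tested directly. Against unmodified serum/LIF, 1 member passed in 2iL, in the upward direction, and 2 in the knockout, 1 in each direction. Of all genes tested 4.16% passed in 2iL (1.35% upward, 2.80% downward) and 4.37% in the knockout (1.25% upward, 3.12% downward), and at 10 CPM or more 4.75% and 5.86%, so the members' counts were near the background. With the replicate number as a block, 3 members passed in 2iL, the others being Cbx2 (log2 -0.57, adjusted p = 0.0409) and Kdm2b (-0.62, 0.0155). In that fit 920 of the 16987 genes passed. Bcor, a corepressor of the Pcgf1 complex, fell in unmodified serum/LIF from 69.5 and 80.5 CPM with DMSO to 42.6 and 37.3 CPM with JQ1 (log2 -0.91 ± 0.15, adjusted p = 0.00157). In 2iL it stood at 51.7 and 70.5 CPM with DMSO and 75.9 and 85.6 CPM with JQ1 (log2 0.40 ± 0.15, adjusted p = 0.0648), and the difference of the responses was log2 1.31 ± 0.22 (adjusted p = 0.00489). That call held under all 19 alternatives. In the knockout Bcor fell from 36.5 and 31.2 to 22.1 and 20.5 CPM (log2 -0.66 ± 0.16, adjusted p = 0.00695), lost without replicate 1 with DMSO (0.0726) or replicate 2 with JQ1 (0.0603).

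Bmi1, the PCGF gene named for its role as an oncogene, rose with JQ1 in the knockout from 12.1 and 8.77 to 31.4 and 27.7 CPM (log2 1.50 ± 0.16, adjusted p = 2.84e-05). It stood at 8.0 and 7.57 against 9.77 and 9.83 CPM in unmodified serum/LIF (log2 0.33 ± 0.16, adjusted p = 0.169) and at 43.0 and 38.4 against 37.0 and 40.2 CPM in 2iL. The response in the knockout exceeded that in unmodified serum/LIF by log2 1.17 ± 0.22 (adjusted p = 0.0132). The difference was no longer called without replicate 1 of unmodified serum/LIF with DMSO (1.12, adjusted p = 0.0535) or replicate 1 of the knockout with JQ1 (1.07, 0.0703), whereas the rise within the knockout held under all 19 alternatives.

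Kdm2b, which recruits variant PRC1 to unmethylated CpG islands, fell with JQ1 in the knockout from 181 and 151 to 109 and 102 CPM (log2 -0.65 ± 0.13, adjusted p = 0.00201). In unmodified serum/LIF it stood at 109 and 96.5 against 131 and 113 CPM (log2 0.25 ± 0.13, adjusted p = 0.186). The difference was log2 -0.90 ± 0.18 (adjusted p = 0.0157), and it was lost without replicate 2 of unmodified serum/LIF with DMSO (-0.81, 0.0545), replicate 1 of the knockout with DMSO (-0.76, 0.0872) or either knockout library with JQ1 (-0.95 and -0.85, 0.0616 and 0.0824). In 2iL the fall of Kdm2b by log2 0.38 (adjusted p = 0.0446) was lost with RLE scaling, with only the libraries compared, and without any 1 of 9 libraries: both of unmodified serum/LIF with DMSO, the 4 of 2iL, replicate 1 of the knockout with DMSO and both of the knockout with JQ1 (0.0501 to 0.304). The Kdm2b gene overlaps exons of 3 other genes, and its expected count was not whole in any of the 12 libraries.

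Cbx8, a CBX gene at the edge of detection in serum/LIF, rose with JQ1 in the knockout, and the difference from its response in unmodified serum/LIF did not pass. It held 8 and 5 counts in the 2 knockout libraries with DMSO, or 0.406 and 0.279 CPM, against 1.13 and 0.835 CPM with JQ1 (log2 1.52 ± 0.45, adjusted p = 0.0193). In unmodified serum/LIF it stood at 1.24 and 1.28 CPM with DMSO and 0.912 and 0.920 CPM with JQ1, and the difference of the responses was log2 1.98 ± 0.57 (adjusted p = 0.0689), or 1.94 with the replicate block (0.0441). The call within the knockout was lost without either DMSO library (adjusted p = 0.0595 and 0.114) or replicate 1 with JQ1 (0.133).

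**Figure D4:**
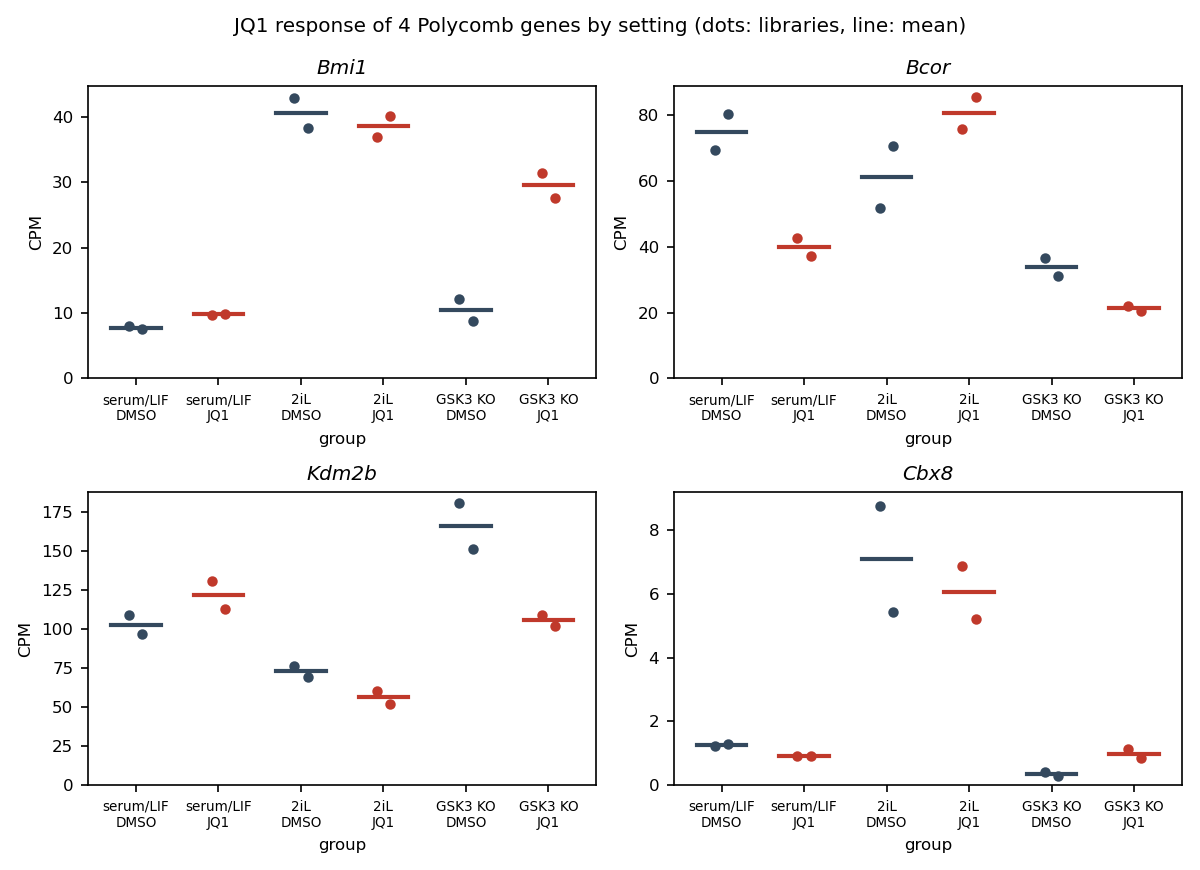
CPM per library of Bmi1, Bcor, Kdm2b and Cbx8 by group, with a line at the group mean and each axis starting at 0. Bmi1 rose with JQ1 to 31.4 and 27.7 CPM in the knockout while it stood at 9.77 and 9.83 CPM in unmodified serum/LIF, and Bcor was lower with JQ1 in both serum/LIF settings and higher in 2iL, where the change did not pass.

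The comparison of media asked which Polycomb genes differed between the 2iL ground state and serum/LIF, with DMSO. In 2iL 16 members were higher (28.3% of all genes tested were) and 5 lower (26.5% of all genes). Together 65.6% of the members passed beside 54.8% of all genes and 57.0% of genes with a mean of at least 10 CPM. The median log2 fold change was 0.33 for the members and 0.04 over all genes. In the PRC2 core 5 genes were higher and 1 lower, both catalytic PRC1 genes and 3 of 4 CBX genes were higher, and none of the 4 PHC and SCM genes passed. The 13 proliferation genes, among them E2f1 and the Mcm genes, also moved, with 11 higher and 0 lower, summing to 4353 to 4480 CPM against 3042 to 3054 CPM. Of the 6 neuroectoderm markers 2, Pou3f1 and Nes, were lower and 1, Sox1, was higher, and the list summed to 72.5 to 80.7 CPM against 359 to 481 CPM. Of the 8 primitive endoderm markers 4 were lower and 1, Lama1, was higher, summing to 69.5 to 109 CPM against 77.8 to 83.7 CPM. In 2iL 5 of these 8 averaged under 1 CPM, and Foxa2 was at 0 in replicate 2. No gene of the 3 lists was at 0 in both libraries of a group, and their part in the Polycomb levels was not tested.

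The largest differences were in genes that were scarce in serum/LIF. Cbx8 stood at 1.24 and 1.28 CPM in serum/LIF and 8.77 and 5.44 CPM in 2iL (log2 2.49 ± 0.31, adjusted p = 1.89e-05). Bmi1 stood at 8.0 and 7.57 against 43.0 and 38.4 CPM (log2 2.38 ± 0.16, adjusted p = 6.67e-08), and Pcgf1 at 3.67 and 4.30 against 18.1 and 13.2 CPM (log2 1.99 ± 0.20, adjusted p = 2.88e-06). None of these groups overlapped, and the 3 calls held under all 19 alternatives. Pcgf5 was lower in 2iL, at 9.55 and 8.61 against 21.4 and 19.8 CPM (log2 -1.18, adjusted p = 1.19e-05), and Yaf2 fell from 24.1 and 17.7 to 7.71 and 4.93 CPM (log2 -1.73, adjusted p = 1.55e-05), again without overlap.

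In PRC2, Mtf2 stood at 204 and 249 CPM in serum/LIF and 571 and 494 CPM in 2iL (log2 1.23 ± 0.13, adjusted p = 6.14e-06), Suz12 at 160 and 183 against 341 and 343 CPM (log2 1.00 ± 0.09, adjusted p = 1.73e-06), and Ezh2 at 105 and 110 against 188 and 167 CPM (log2 0.73 ± 0.10, adjusted p = 6.2e-05). These 3 genes and Aebp2 (log2 1.01, adjusted p = 9.53e-06) did not overlap between media. Rbbp7 was the core gene that went the other way, from 386 and 349 down to 243 and 235 CPM (log2 -0.62, adjusted p = 0.00014), while Rbbp4 rose by 0.51 (adjusted p = 0.00317), lost without replicate 1 of 2iL with DMSO (0.30, 0.0647). Ezh1 rose by log2 0.81 ± 0.21 (adjusted p = 0.00577), lost without replicate 1 of serum/LIF (0.48, 0.0769) or replicate 2 of 2iL (0.56, 0.0788). The rise of Eed by 0.32 (adjusted p = 0.0350) was lost under 13 of the 19 alternatives, among them DESeq2 (0.0904), RLE scaling (0.0853) and the leaving out of replicate 1 of 2iL with DMSO (0.17, 0.317), either serum/LIF library with DMSO (0.154 and 0.0692), either 2iL library with JQ1 (0.0899 and 0.0887) or replicate 2 with DMSO or either with JQ1 of the knockout (0.0502 to 0.0522). The fall of Jarid2 by 0.48 (adjusted p = 0.0229) was lost without replicate 2 of serum/LIF (-0.12, 0.459) or either 2iL library (0.0504 and 0.0525) and with only the libraries compared (0.0555).

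The catalytic PRC1 genes rose by log2 0.61 for Ring1 (adjusted p = 0.00565) and 0.50 for Rnf2 (adjusted p = 0.000669). The call of Ring1 was lost without replicate 1 of serum/LIF (0.0512) or replicate 1 of 2iL (0.0581). Cbx2 and Cbx6 rose by 0.60 and 0.69 and Cbx7 did not pass (0.02). Of the variant PRC1 partners, Rybp rose by 0.34 (adjusted p = 0.00615, lost with only the libraries compared, 0.0876, or without replicate 2 of 2iL, 0.0696), and Kdm2b fell by 0.50 (adjusted p = 0.00463).

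The libraries labelled as GSK3 knockout were compared with unmodified cells in the same medium. With DMSO, 17 members were higher than in unmodified cells (18.9% of all genes tested were) and 6 lower (21.0% of all genes). Together 71.9% of the members passed beside 40.0% of all genes and 43.9% of genes with a mean of at least 10 CPM. The median log2 fold change was 0.34 for the members and 0.01 over all genes. Higher members included 5 of the 6 PRC2 core genes and 3 of the 5 accessory genes, with none of either lower. Without replicate 1 of unmodified serum/LIF, the deepest library, fewer of all genes were higher, and fewer members were higher too. Of the core and accessory genes only Eed, Suz12 and Mtf2 remained among them, and 1 accessory gene was lower. Without replicate 1 of the knockout, too, fewer of all genes and fewer members were higher. The core and accessory genes still higher were Eed, Ezh2, Suz12 and Mtf2.

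Suz12 stood at 160 and 183 CPM in unmodified cells and 344 and 330 CPM in the knockout (log2 0.97 ± 0.09, adjusted p = 5.47e-06). Eed rose from 109 and 115 to 187 and 190 CPM (log2 0.75, adjusted p = 0.00025), Rnf2 from 75.8 and 70.0 to 123 and 115 CPM (log2 0.71, adjusted p = 9.15e-05), and Mtf2 from 204 and 249 to 365 and 363 CPM (log2 0.68, adjusted p = 0.00131). None of these 4 overlapped, and all 4 calls held under the 19 alternatives. Ezh2 rose from 105 and 110 to 130 and 146 CPM (log2 0.36 ± 0.10, adjusted p = 0.0138), lost without replicate 1 of unmodified serum/LIF (0.33, 0.0892) or replicate 2 of the knockout (0.28, 0.128). Ezh1 rose by 0.64 ± 0.21 (adjusted p = 0.0303), lost without replicate 1 of unmodified serum/LIF (0.31, 0.297) or of the knockout (0.50, 0.190) or either 2iL library with JQ1 (0.0517 and 0.0519). Ring1 did not pass (log2 0.12), at 8.90 and 9.88 against 9.65 and 10.7 CPM, which overlapped. Pcgf1 stood at 3.67 and 4.30 against 7.16 and 6.82 CPM (log2 0.82, adjusted p = 0.00617, lost without replicate 1 of unmodified serum/LIF, 0.0674). Phc3 stood at 18.3 and 18.5 against 45.0 and 31.6 CPM (log2 1.06, adjusted p = 0.00438), lost without replicate 1 of the knockout (0.79, 0.0601).

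Lower in the knockout were Cbx8, at 1.24 and 1.28 against 0.406 and 0.279 CPM (log2 -1.85 ± 0.43, adjusted p = 0.0039), Bcor, at 69.5 and 80.5 against 36.5 and 31.2 CPM (log2 -1.15 ± 0.16, adjusted p = 8.33e-05), and Yaf2, at 24.1 and 17.7 against 9.35 and 9.84 CPM (log2 -1.13, adjusted p = 0.000771). The groups of these 3 genes did not overlap, and their calls held under all 19 alternatives. Pcgf5, Phc2 and Scmh1 were also lower, by log2 -0.68, -0.72 and -0.54. The call of Phc2 was lost without replicate 1 of unmodified serum/LIF (-0.42, 0.0591), which moved its value by more than 1.5 times, and that of Scmh1 without either knockout library (0.0548 and 0.0713). Of the 8 primitive endoderm markers 7 were higher in the knockout and 1, Dab2, was lower (log2 -1.37, adjusted p = 0.00275). The list summed to 355 to 495 CPM against 77.8 to 83.7 CPM, of which Lama1 alone made up 398 and 287 against 29.5 and 40.1 CPM. Of the 6 neuroectoderm markers 4 were lower and 1, Sox1, was higher (log2 2.72, adjusted p = 0.00143). They summed to 36.2 to 43.1 CPM against 359 to 481 CPM, most of it Nes, at 19.4 and 23.5 against 321 and 215 CPM, and Pou3f1, at 2.18 and 2.35 against 116 and 94.2 CPM. Of the 13 proliferation genes 6 were higher and 0 lower, summing to 3497 to 3516 CPM against 3042 to 3054 CPM. None of these lists had a gene at 0, and their part in the Polycomb levels was not tested.

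The comparisons of 2iL and of the knockout share the 2 unmodified serum/LIF DMSO libraries, so their values are given side by side without a test of likeness. The log2 fold changes in 2iL and in the knockout were 0.51 and 0.35 for Rbbp4 and 1.01 and 0.39 for Aebp2. For Pcgf2 they were 0.41 and 0.52, for Cbx2 0.60 and 0.32, and for Cbx6 0.69 and 0.43. Cbx8 was higher in 2iL (log2 2.49) and lower in the knockout (-1.85). Jarid2 and Kdm2b were lower in 2iL (-0.48 and -0.50) and higher in the knockout (0.57 and 0.69). Bmi1 was higher in 2iL (2.38) and did not pass in the knockout (0.42, adjusted p = 0.0532). The 2iL call of Pcgf2 was lost without replicate 2 of serum/LIF (0.37, 0.0549) or replicate 1 of 2iL (0.22, 0.157) and with only the libraries compared (0.0756). In the knockout the calls of Rbbp4 and Cbx2 were each lost under 10 of the 19 alternatives, among them DESeq2 (adjusted p = 0.0654 and 0.0920), any of the 4 DMSO libraries compared left out (0.0583 to 0.202 and 0.0595 to 0.197) and either 2iL library with JQ1 left out (0.0624 to 0.0659 over both genes). That of Rbbp4 was also lost without either knockout library with JQ1 (0.0524), and that of Aebp2 without replicate 1 of unmodified serum/LIF (0.138) or of the knockout (0.123). The knockout call of Jarid2 was lost without replicate 1 of unmodified serum/LIF (0.28, 0.112) or either knockout library (0.0528 and 0.0535).

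The shares of paralogs in their family's summed TPM were also compared, as descriptions without a test. The PCGF genes belong to different kinds of PRC1, so their shares do not describe an exchange within a single complex. Ezh2 held between 87.5% and 93.4% of the EZH transcripts in every library. Of the PCGF genes Pcgf2 held the largest share in each library, between 37.4% and 53.8%. With DMSO, Pcgf1 took 7.23% ± 0.886 (SD, n = 2) in unmodified serum/LIF against 20.1% ± 1.01 in 2iL, while Bmi1 took 2.55% and 2.78% against 9.60% in both 2iL libraries. In the knockout Bmi1 took 3.11% and 3.09% with DMSO and 6.15% and 5.30% with JQ1. Pcgf5 took 10.5% and 9.42% in unmodified serum/LIF, 17.8% and 14.1% there with JQ1, and 3.57% and 3.92% in 2iL with DMSO.

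**Figure D5:**
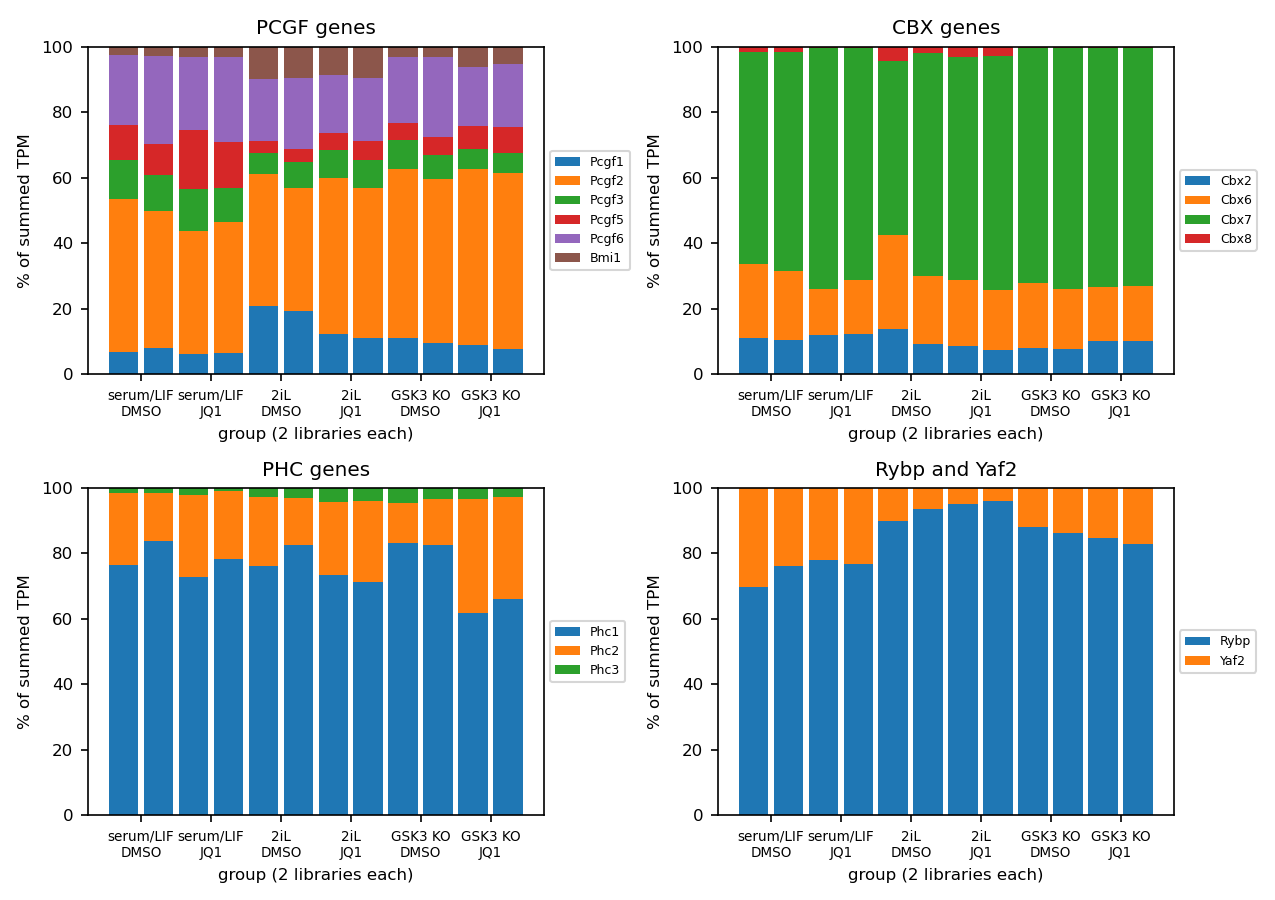
Share of each paralog in the summed TPM of its family, in percent, with 1 bar per library and 2 libraries per group. The PCGF panel shows the larger Pcgf1 and Bmi1 shares in 2iL, and the PHC panel the larger Phc2 share in the knockout with JQ1, at 34.8% and 31.2%.

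Cbx7 held most of the CBX transcripts everywhere, between 53.3% and 73.8%, and Cbx8 at most 4.28%. Phc1 held 83.1% and 82.6% of the PHC transcripts in the knockout with DMSO and 61.9% and 66.2% with JQ1, while Phc2 went from 12.2% and 14.0% to 34.8% and 31.2%. These shares did not overlap, and the level of Phc1 itself did not pass (log2 -0.35). With DMSO, Yaf2 held 30.3% and 23.8% of the sum with Rybp in unmodified serum/LIF. Its share was 10.1% and 6.36% in 2iL, and the knockout libraries had 11.8% and 13.9%. Rbbp7 held 75.3% and 75.0% of the sum with Rbbp4 in unmodified serum/LIF and 55.1% and 60.4% in 2iL.

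Other components of the pathway were counted from a list that holds none of the members. Of 26 further PRC1 and PRC2 components 25 were tested, and the JQ1 comparisons gave 5 higher and 1 lower in unmodified serum/LIF, 7 higher and 0 lower in 2iL, and 7 higher and 2 lower for the knockout. The shares of all genes that passed are given above. Auts2, a partner of the Pcgf3 and Pcgf5 complexes, rose by log2 0.61 in serum/LIF and Epop, a PRC2 partner, by 0.72 in 2iL. Sfmbt2 rose by 1.66 in 2iL and fell by 1.00 in the knockout. In 2iL against serum/LIF 11 were higher and 4 lower (28.3% and 26.5% of all genes). In the knockout 8 were higher and 5 lower (18.9% and 21.0% of all genes), with Epop at 414 ± 5.81 against 179 ± 0.771 CPM (SD, n = 2 each, log2 1.21).

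Lists of genes that mostly oppose Polycomb were counted beside all genes. Of the 11 genes of the PR-DUB complex, which removes ubiquitin from H2A, 3 rose and 0 fell with JQ1 in unmodified serum/LIF (8.54% and 12.8% of all genes). In 2iL 6 rose and 0 fell (11.2% and 17.3%), and in the knockout 0 rose and 1, Asxl2, fell (14.6% and 19.5%). Another list of 17 genes held demethylases of the PRC2 mark and genes of the Trithorax/MLL complexes, which methylate H3 at active genes. It also held Kdm5a, a demethylase of another mark. Of the 17, 2 rose and 1 fell in unmodified serum/LIF, 6 rose and 1 fell in 2iL, and 1 rose and 5 fell in the knockout. Either way, 21.3%, 28.5% and 34.1% of all genes passed in these settings, and the serum/LIF count was near that background. Setd1b, an MLL-family methyltransferase, rose by log2 1.10 ± 0.23 in 2iL and fell by 0.77 ± 0.22 in the knockout. In 2iL against serum/LIF, PR-DUB had 4 higher and 2 lower and the demethylase and Trithorax genes 7 and 3, near the 54.8% of all genes that passed. In the knockout against unmodified cells the counts were 2 and 0, and 8 and 1, beside 40.0% of all genes.

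Developmental genes that are textbook Polycomb targets in ES cells were mostly low. Of 47 such genes between 29 and 36 were under 1 CPM in each group, and 33 were tested. With JQ1, 2 rose and 1 fell in unmodified serum/LIF, 0 rose and 5 fell in 2iL, and 7 rose and 1 fell in the knockout, with Hoxb13 at 3.54 ± 1.31 against 0.820 ± 0.133 CPM there (log2 2.11, adjusted p = 0.00303). With both directions pooled, 21.3%, 28.5% and 34.1% of all genes passed in these settings, larger shares than in this list. Taken by direction, the knockout differed. With JQ1 there, 14.6% of all genes rose and 19.5% fell, so the list's share was larger upward and smaller downward. For unmodified cells in either medium, the list's share was smaller in each direction. These shares were compared without a test. In 2iL 8 were higher and 12 lower than in serum/LIF (median log2 -0.91), beside 28.3% and 26.5% of all genes. Hand1, a trophoblast and mesoderm factor, stood at 0.0459 ± 0.0649 against 14.8 ± 3.51 CPM and Hoxc13 at 17.4 ± 3.66 against 1.60 ± 0.0490 CPM. In the knockout 5 were higher and 12 lower than in unmodified cells (median log2 -0.90), beside 18.9% and 21.0% of all genes. Among the lower, Hand1 stood at 0.378 ± 0.176 against 14.8 ± 3.51 CPM and Msx1 at 1.01 ± 0.0825 against 24.7 ± 12.9 CPM. Among the higher, Gata6, an endoderm factor, stood at 18.3 ± 4.67 against 1.18 ± 0.227 CPM. Gata4, Gata6 and Sox17 are also primitive endoderm markers above, and Pax6 and Zic1 neuroectoderm markers, so the counts of these lists are not separate.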

How the data were processed

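Messenger RNA was measured by paired-end sequencing in 12 libraries, 2 in each of 6 groups taken from the sample titles. The authors deposited, per library and gene, expected counts from RSEM, which are not scaled to depth, and the TPM and FPKM values that RSEM scales to depth and length, per the file headers. Per the submitters' processing notes the tools were bcl2fastq, STAR 2.5.2, RSEM and DESeq2 1.18.1 on mm10. The annotation release, strand setting and filters are not given in the sources used here.

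The members and gene lists were chosen with earlier results of these data known. Of 52550 identifiers 52403 matched GENCODE M21 (GRCm38) without their version, and every member matched 1. Rounded expected counts entered edgeR 4.0.16 (R 4.3.3) after filterByExpr (minimum count 10, minimum total 15), which kept 16987 genes, and TMM scaling. A single quasi-likelihood fit of the 6 groups, with 6 residual degrees of freedom, gave 8 comparisons: JQ1 against DMSO in each setting, their average, 2iL against serum/LIF, knockout against unmodified, and 2 differences of the JQ1 response from that in unmodified serum/LIF. CPM are rounded counts over the TMM-scaled library size. The standard error is the size of the log2 fold change over the square root of F. The fit was tested on simulated data. TPM were used for levels between genes and for shares, FPKM for a check of the order.

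All members may be named. Full values are given for up to 6 members per comparison with the largest change among those that passed and for Ezh1, Ezh2, Ring1 and Rnf2, and of other lists up to 3 genes per direction. Promoters came from a RefSeq table (GRCm38.p6) and were matched by symbol. Alternatives comprised the test of DESeq2 1.42.0, RLE size factors in edgeR, leaving out the filter on low counts, a filter of 1 CPM in 4 libraries, a fit on the compared libraries alone, a block for the replicate number, and each library left out. A fit without mitochondrially encoded genes was chosen after seeing the data. A group left with 1 library was assumed to vary like the others.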

Additional observations from a re-analysis of the deposited data

Results flagged for a closer look

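The 3 members below are listed because their response to JQ1 differed between settings by a test of the difference itself (edgeR's quasi-likelihood test with Benjamini-Hochberg adjustment). No explanation was tested.

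For Bcor the log2 fold change with JQ1 was higher in 2iL than in unmodified serum/LIF by 1.31 ± 0.22 (SE, adjusted p = 0.00489), with both JQ1 libraries below both DMSO libraries in serum/LIF and both above them in 2iL.

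For Bmi1 the response was higher in the knockout than in unmodified serum/LIF by log2 1.17 ± 0.22 (adjusted p = 0.0132), and it was lost without replicate 1 of unmodified serum/LIF with DMSO (1.12, adjusted p = 0.0535) or replicate 1 of the knockout with JQ1 (1.07, 0.0703).

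For Kdm2b the difference in the knockout was log2 -0.90 ± 0.18 (adjusted p = 0.0157). It was lost without any 1 of 4 libraries: replicate 2 of unmodified serum/LIF with DMSO, replicate 1 of the knockout with DMSO, or either knockout library with JQ1 (adjusted p = 0.0545 to 0.0872).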

How the results depend on the processing

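The 8 comparisons share libraries, and the share of all genes that passed in each is given above. Over these comparisons and the 32 members, 100 of 256 values passed. Of these, 56 passed under every alternative tried and 44 were lost under at least 1, and 0 changed sign. By number most losses came when 1 library was left out. Such fits made up 12 of the 19 alternatives, so this does not rank the kinds of alternative. DESeq2 lost 4 and gained 9, RLE scaling lost 5 and gained 5, no low-count filter lost 3 and gained 17, the stricter filter lost 1 and gained 6, and the fit without mitochondrially encoded genes lost 1 and gained 3. Fits of only the libraries compared lost 14 and gained 6, and reduced the JQ1 count in serum/LIF from 10 to 3. Over all genes that count went from 3623 of 16987 to 2245 of 15850. They do not apply to the average response, which uses all 12 libraries. For the difference in 2iL, where 1 member passed, DESeq2 gave 3, no low-count filter 4 and the stricter filter 2, and for that in the knockout, where 2 passed, no low-count filter gave 5. Over all genes the difference in 2iL passed for 706 of 16987 in the main fit and 1014 of 16987 with DESeq2. It passed for 1478 of 30185 without the filter and 711 of 14158 with the stricter filter. That in the knockout passed for 742 of 16987 in the main fit and 2011 of 30185 without the filter. The cause was not tested. With each library left out in turn the counts ranged from 5 to 12 for JQ1 in serum/LIF, 5 to 14 in 2iL and 9 to 19 in the knockout, 14 to 24 for the knockout against unmodified cells, 1 to 2 for the difference in 2iL and 0 to 3 for that in the knockout. The order of levels was checked in FPKM, and 2 members changed rank in 1 group.

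The labels give no shared culture or day for a replicate number. The correlations of same-numbered deviations ran from -0.186 to 0.185 over the 15 pairs of groups, so the numbers were not taken to pair the libraries, but between DMSO and JQ1 of 1 setting they were 0.185 in unmodified serum/LIF, 0.118 in 2iL and 0.117 in the knockout. With the replicate block no call was lost and 13 were gained. In the JQ1 comparisons these were Cbx7 in serum/LIF (adjusted p = 0.0475), Pcgf3 and Phc2 in 2iL (0.0486 and 0.0379), Phc1 in the knockout (0.0273) and Scmh1 in the average (0.0389), and 3 members passed for the difference in 2iL in place of 1.

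Phf19 and Cbx8 limit the precision most, with as few as 8 and 5 counts in a library. With 2 libraries per group, a change that did not pass is not shown to be absent.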

Other observations

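The average transcript length that RSEM assigned to a gene, which moves when the mix of its isoforms moves, was compared between groups as a description. For Kdm2b it was 3715 and 4042 bases in unmodified serum/LIF with DMSO, 2927 and 2823 in the knockout with DMSO, and 3508 and 3458 in the knockout with JQ1. The knockout libraries with DMSO lay below all other groups, and the gene's level was highest there. For Rnf2 it was 2692 and 2655 bases in 2iL with DMSO and 1994 and 2331 with JQ1, again without overlap. Kdm2b and Rnf2 were chosen after their values were seen, and no test was made.

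Across the 32 members, the log2 fold changes with JQ1 in serum/LIF and 2iL had a Pearson correlation of 0.66, against 0.57 over all genes tested. Without Phf19 it was 0.37. Between 2iL and the knockout it was 0.42, against 0.47 over all genes, and 0.02 without Phf19. Between serum/LIF and the knockout it was 0.55, against 0.53 over all genes, and 0.37 without Phf19. These are descriptions across genes, which are not independent replicates, and part of each member value rests on Phf19.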
